A study of Homo sapiens with 8 samples.

Results

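The transcripts described here are 5 genes of the FGF and insulin receptor pathways, the ligand FGF2, the receptors FGFR1, IGF1R and INSR, and the feedback phosphatase DUSP6. Their members are the RBPMS eCLIP peaks that overlap the gene's window on the gene's own strand by at least 1 base, and 540 of the 194003 peaks listed over 4 libraries met that rule. RBPMS is an RNA-binding protein, and eCLIP compares RNA crosslinked to an immunoprecipitated protein with input RNA, place by place. A listed peak need not exceed input. All libraries came from 1 group, HUES6 cells of WT genotype under the treatment called control and grown in FTDA medium. HUES6 is a long-used human embryonic stem cell line. Input RNA, with 4 libraries, is present only in the ratio and p that the authors computed for each peak, so the data compare immunoprecipitated (IP) with input RNA and hold no second condition.

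FGF2 binds FGFR1, a receptor tyrosine kinase, and switches on the RAS and ERK kinase cascade, which human pluripotent stem cells need to stay undifferentiated in culture. IGF1R and INSR are the related receptors for insulin-like growth factors and insulin, and signal mainly through PI3K and AKT to growth and survival. DUSP6 removes phosphate from ERK, and its gene is switched on by ERK signalling, so it acts as a negative feedback on the FGF pathway. FTDA medium is named for its added factors, of which FGF2 is the first.

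Libraries 1, 2, 3 and 4 listed 25759, 118375, 20254 and 29615 peaks, and the median log2 fold of IP over input was 3.25, 1.06, 2.67 and 2.13. The log2 fold was above 0 in 97.2%, 84.4%, 95.7% and 92.6% of the listed peaks. A peak is called enriched here where its log2 fold was at least 3, which is 8-fold, and its −log10 p at least 3, both as the authors gave them. Where the read numbers behind a peak could be worked out from these values, they are given as IP and input reads. Between libraries 3 and 4 the IP reads differed by no more than sampling noise (chi-square of 1.03 per degree of freedom over 364 shared peaks, p = 0.343), against 6.61 to 12.7 for the other 5 pairs. They were counted as 1 sample, so a mean ± SD covers n = 3 samples, and a count of 3 libraries that includes both holds 2 samples. Whether each library is a culture of its own is not in the labels, and the SD may therefore measure technical spread alone. Of 10 marker genes of pluripotent stem cells, 7 had listed peaks in all 4 libraries and NANOG in none, while of 6 markers of differentiated cells only COL1A1 had any.

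Across the 5 genes, libraries 1, 2, 3 and 4 listed 84, 264, 77 and 115 peaks. Enriched among them, in the same order, were 11, 5, 3 and 10 peaks. As shares these were 13.1%, 1.89%, 3.90% and 8.70%, and over all listed peaks the same libraries gave 15.9%, 5.38%, 12.6% and 12.7%. The genes' share thus lay below that of the whole list in each library. The median log2 fold of the genes' peaks was 2.25, 0.80, 1.94 and 1.86, below the median of the whole list in each library as well. In libraries 1, 3 and 4 the whole-list median equals the fold of 3 IP reads over 1 input read. It therefore depends on the depth of IP and input, and a lower median in the genes does not measure weaker binding. No peak was listed on the opposite strand of any of the 5 windows, in any library. Such peaks were also rare in 59 other genes of the same pathways. There libraries 1 to 4 listed 0, 3, 2 and 1, beside 207, 947, 160 and 229 on the gene strand.

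Most of the genes' peaks did not recur. Merged over libraries, the 540 peaks formed 406 regions, of which 334 were listed in 1 library, 45 in 2, 17 in 3 and 10 in all 4. Regions of 3 or 4 libraries made up 6.65% of the total, beside 4.94% over the 154731 regions of the whole series. The 29 enriched peaks formed 18 regions, and 3 of them were enriched in at least 3 libraries, 2 in FGFR1 and 1 in IGF1R. Over the whole series 22.7% of 7472 enriched regions were. All 3 were enriched in libraries 1, 3 and 4 and not in library 2, so each rests on 2 samples.

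**Figure D1:**
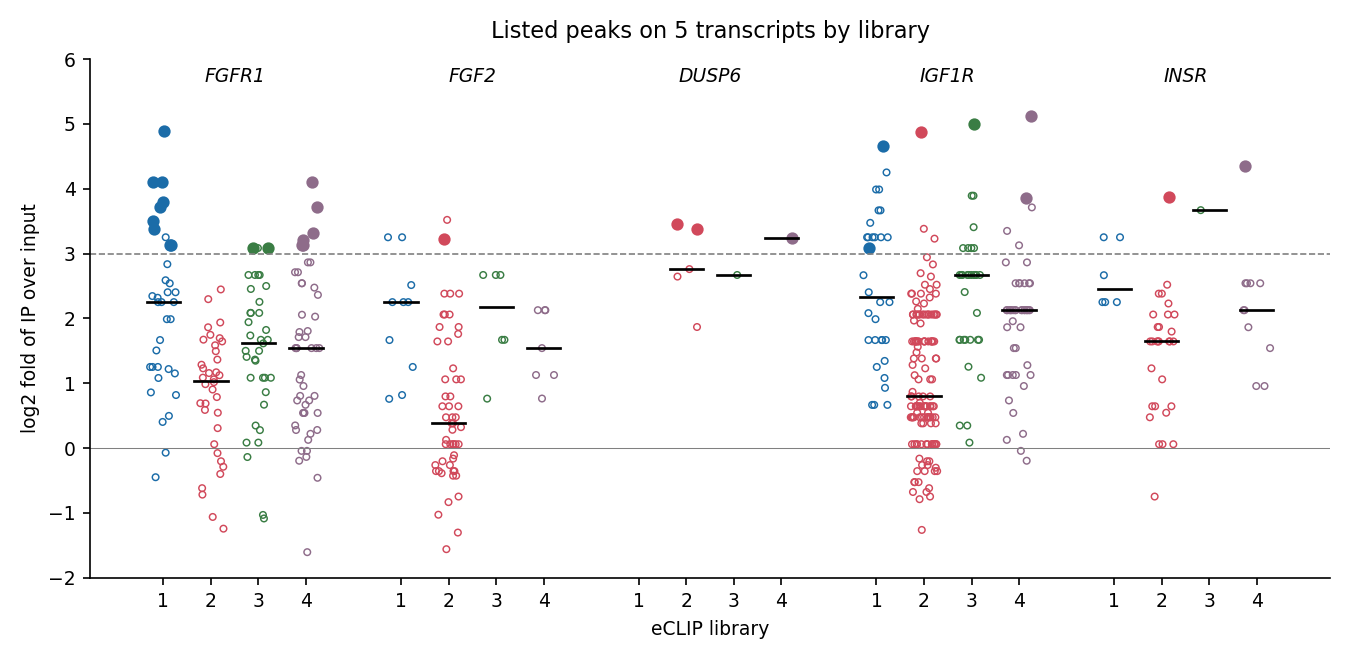
Log2 fold of IP over input of each listed peak in the windows of the 5 genes, by eCLIP library, with filled points for enriched peaks. Black bars mark the median, and the dashed line marks the fold threshold. Library 2 listed the most peaks in every gene except FGFR1, where it listed 36 as library 1 did, and FGFR1 had the most enriched peaks in libraries 1, 3 and 4 and none in library 2.

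FGFR1, the receptor tyrosine kinase that binds FGF2, held 17 of the 29 enriched peaks, in 9 of the 18 enriched regions. Its window spans 59 kb of chromosome 8, from 38268000 to 38327000 on the minus strand of build hg19, and was rounded to whole kb. In it 36, 36, 37 and 49 peaks were listed in libraries 1, 2, 3 and 4, a mean of 38.3 ± 4.04 (SD, n = 3). The number barely moved with the length of the lists, so that FGFR1 had 14, 3.04, 18.3 and 16.5 peaks in every 10000 listed. Library 2, which listed the most peaks in all, thus stood lowest by this measure.

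Enriched peaks of FGFR1 numbered 9, 0, 2 and 6, which is 25.0% of its listed peaks in library 1 (95% exact binomial interval 12.1% to 42.2%), 5.41% in library 3 (0.66% to 18.2%) and 12.2% in library 4 (4.63% to 24.8%). In library 2 it was 0 of 36, which allows a share of up to 8.33% as 3 counts of the total, or 9.74% by the exact interval, both above the 5.38% of that library's whole list. The intervals cover counting error only, and in libraries 1, 3 and 4 they hold the share of the whole list. They also take peaks as independent, whereas some enriched peaks of library 1 abut, as at 38278490 to 38278544 and 38278545 to 38278561. The intervals may therefore be too narrow. Peaks with a −log10 p of at least 3, whatever their fold, numbered 14, 15, 5 and 11. In FGFR1 library 2 therefore had about as many low p values as library 1, at smaller folds. Its highest log2 fold there was 2.45 against 4.90, 3.09 and 4.11 in libraries 1, 3 and 4. A median of 75 IP reads and 34 input reads lay behind its FGFR1 peaks, against 10 and 9.5 in library 1, 6 and 3 in library 3 and 9 and 4.5 in library 4.

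Enrichment in FGFR1 was concentrated in a stretch of 901 bases at 38278485 to 38279385, 1.53% of the window, between 10 and 12 kb from its 3′ end. The stretch was chosen after its values were seen. It is the part spanned by the merged regions of all listed peaks that hold the regions enriched in 3 libraries. It held 8 of the 9 enriched peaks of library 1, both of library 3 and 2 of the 6 of library 4. In library 2 its 7 listed peaks included 6 with a −log10 p of at least 3. The median log2 fold inside the stretch was 3.76, 1.75, 2.77 and 2.48, and in the remainder of the window 1.83, 0.79, 1.5 and 1.09. In libraries 1, 3 and 4 the enriched peaks and higher folds inside follow in part from how the stretch was chosen. Library 2 gave no enriched peak to that choice, yet its listed peaks set both ends of the stretch. Its higher median inside is therefore not independent of the choice either, and was not tested. Reads were also more numerous here, with 14 to 142 IP reads a peak in library 4 and 57 to 387 in library 2.

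The first region enriched in 3 libraries lay at 38278490 to 38278707, 10.6 kb from the 3′ end. Its highest log2 fold was 4.11, 1.94, 3.09 and 4.11 in libraries 1 to 4, a mean of 3.21 ± 1.14 (SD, n = 3), and 3.85 without library 2. The reads behind these peaks were 87 IP and 16 input, 202 and 55, 60 and 15, and 142 and 12. Library 2 had the most reads and the lowest fold, and its −log10 p of 20.5 lay between the 17.8 of library 3 and the 45.5 of library 1.

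The second lay at 38279212 to 38279353, 11.3 kb from the 3′ end. Its highest log2 fold was 4.90, 2.45, 3.09 and 3.32, a mean of 3.52 ± 1.25 (SD, n = 3), and 4.05 without library 2. Library 1 reached the highest fold of the gene there, with a −log10 p at the upper bound of 400, so that its reads could not be worked out. In library 2 the peak held 387 IP and 74 input reads, the most among the FGFR1 peaks with known reads. Library 3 passed the fold threshold narrowly in both regions, at 3.09 with 60 IP and 15 input reads each time.

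Between them, at 38278953 to 38279054, another region was listed in all 4 libraries with log2 folds of 3.72, 1.29, 1.94 and 2.36, a mean of 2.39 ± 1.24 (SD, n = 3). It was enriched in library 1 only. The 68, 32 and 30 input reads in libraries 2, 3 and 4 were more than in the flanking region at 10.6 kb, with IP reads of 159, 58 and 106. All 3 regions of the stretch had library 2 as the lowest library and library 1 as the highest, level with library 4 in the first.

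**Figure D2:**
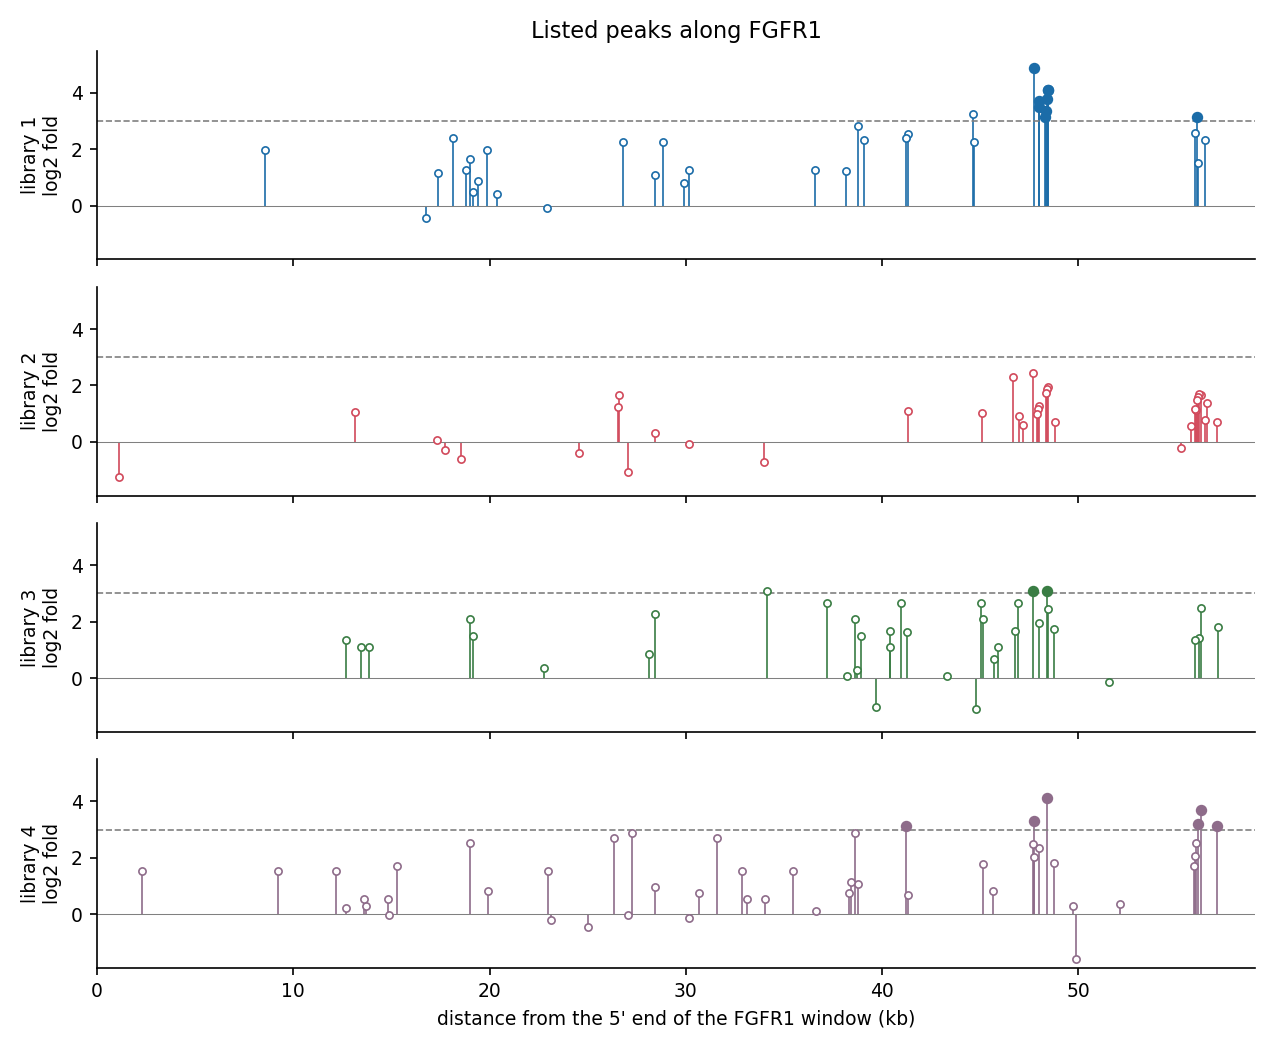
Log2 fold of IP over input of each listed peak along FGFR1, by distance in kb from the 5′ end of its window, with 1 panel per library and filled points for enriched peaks. The tall peaks at 47 to 49 kb recur in all 4 panels and pass the dashed threshold of 3 in libraries 1, 3 and 4 only.

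A second group of FGFR1 peaks lay 1 to 4 kb from the 3′ end and was led by library 4. The region at 38270830 to 38270922 had log2 folds of 1.51, 1.70, 1.41 and 3.21, with 38 IP and 6 input reads in library 4. Its neighbour at 38270923 to 38271129 had 3.14, 1.5, 1.37 and 2.54, with 36 IP and 13 input reads in library 1. Each was thus enriched in a single library, and not in the same one.

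At 38270697 to 38270779 the log2 folds were 1.67, 2.5 and 3.71 in libraries 2, 3 and 4, and at 38269864 to 38269935 they were 0.69, 1.82 and 3.13, with no listed peak in library 1 at either. Library 4 was highest at both, on 18 IP reads over 2 and 3 input reads. Of the 6 enriched peaks of library 4 in FGFR1, 3 fell in this group, 2 in the stretch described above and 1 at 38285606 to 38285813, where the 4 libraries gave 2.54, 1.09, 1.62 and 3.13. Libraries 3 and 4 counted as 1 sample, yet at these places only library 4 was enriched, and library 3 stayed below the fold threshold. The agreement of libraries 3 and 4 was tested on IP reads alone, not on folds.

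FGFR1 had 7 regions listed in all 4 libraries, 7.53% of its 93, beside 2.19% over the whole series. Library 2 was the lowest of the 4 in 5 of these 7 regions and library 3 in 2. Over the 3389 such regions of the whole series library 2 was lowest in 1139, or 33.6%. The median of library 2 minus the mean of the other 2 samples was −1.37 on the log2 scale in FGFR1 and −0.24 over all such regions. These values were not tested, since the regions of 1 transcript share their source.

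**Figure D3:**
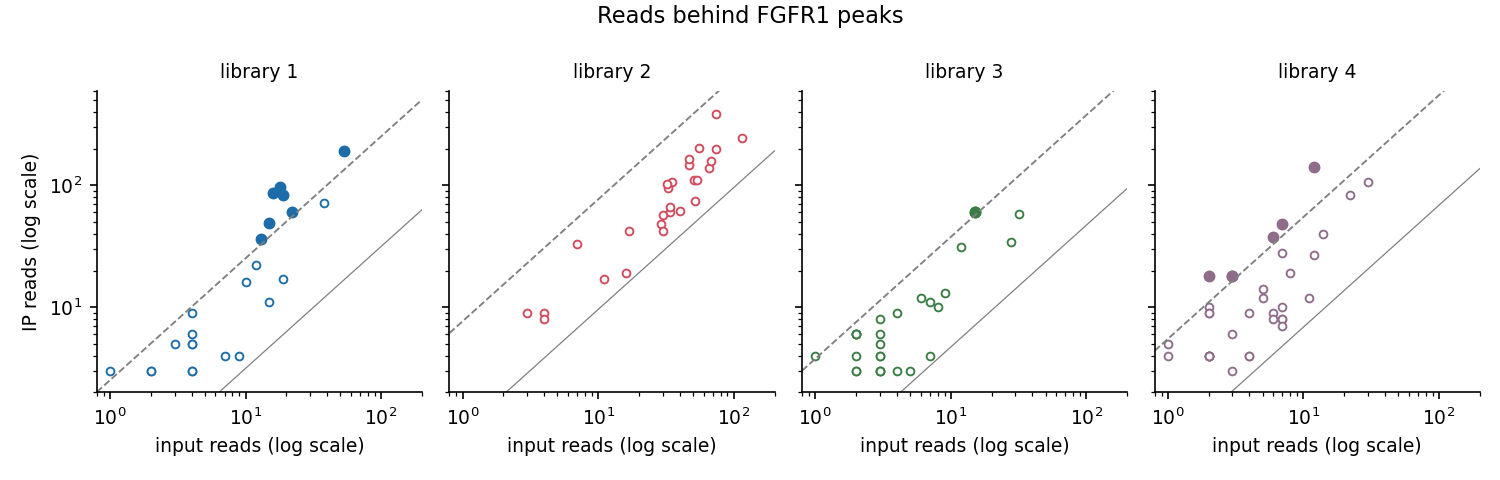
IP reads against input reads behind each listed FGFR1 peak whose read numbers could be worked out, on log axes, with 1 panel per library and filled points for enriched peaks. In library 2 the points lie at higher read numbers than in the other libraries, up to 387 IP reads, and none is filled.

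How the genes compared with the whole lists moved with the fold threshold. With a log2 fold of at least 1 in place of 3 and the same p, FGFR1 had 14, 15, 5 and 11 called peaks, or 38.9%, 41.7%, 13.5% and 22.4% of its listed ones, and 5 regions called in at least 3 libraries. Over the 5 genes the calls were then 16, 28, 6 and 15, or 19%, 10.6%, 7.79% and 13% of listed peaks, beside 18.2%, 7.37%, 13.7% and 14% over the whole lists. FGFR1 alone was above these in libraries 1, 2 and 4 and near them in library 3. With at least 2, a level added after seeing the data, the calls were 16, 13, 4 and 14, or 19%, 4.92%, 5.19% and 12.2%, beside 17.9%, 6.87%, 13.4% and 13.6%. In library 1 the genes' share was near that of the whole list at both levels, and 14 of its 16 calls were in FGFR1. In library 2 the share was above that of the whole list with at least 1 only, where FGFR1 gave 15 of the 28 calls. In libraries 3 and 4 it was below at both levels.

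FGF2, the ligand, had 1 enriched peak among 76 listed. Its window covers 73 kb of chromosome 4, from 123747000 to 123820000 on the plus strand. Libraries 1, 2, 3 and 4 listed 10, 53, 6 and 7 peaks in it, of which 0, 1, 0 and 0 were enriched. The exact 95% upper limits of these shares, 30.8%, 10.1%, 45.9% and 41.0%, lie above the 15.9%, 5.38%, 12.6% and 12.7% of the whole lists, so a lower share in FGF2 was not detectable at this depth. The 1 enriched peak, at 123782316 to 123782399 in library 2, had a log2 fold of 3.23 and a −log10 p of 3.77 from 18 IP and 2 input reads. It lay 35.4 kb from the 5′ end, and no other library listed a peak there.

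The highest listed FGF2 fold of each library was 3.25, 3.52, 2.67 and 2.13. These rested on few reads: the 3.52 of library 2, at 123758813 to 123758882, came from 11 IP reads and 1 input read and missed the p threshold at 2.54. Library 4 also listed that place, at 2.13. Of the 69 regions of FGF2, 62 were listed in 1 library and 7 in 2, and none in 3 or more. The median log2 fold of its peaks was 2.25, 0.38, 2.17 and 1.54.

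Near the 5′ end of FGF2 the libraries differed in sign. The region at 123747990 to 123748106 had a log2 fold of −1.56 in library 2 and 1.54 in library 4, and the region at 123748238 to 123748343 had −1.30 and 0.77. The library 4 values came from 6 IP and 3 input reads and from 7 and 6. Their −log10 p was 0.76 and 0.31, far below the threshold, and the difference in sign was not tested. Neither region was listed in libraries 1 and 3. The authors' −log10 p is 0 for every peak with a log2 fold below 0, so a value below input carries no test. FGF2 shares its locus with NUDT6, a gene transcribed from the other strand over the FGF2 3′ end, and no opposite-strand peak was listed in the window.

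DUSP6, the ERK phosphatase and FGF target gene, has a short window of 6 kb on the minus strand of chromosome 12, starting at 89741000 and ending at 89747000. It had 0, 5, 1 and 1 listed peaks in libraries 1, 2, 3 and 4, of which 0, 2, 0 and 1 were enriched. All 7 lay between 0.98 and 1.94 kb from the 3′ end. Per kb of window, DUSP6 had 0, 0.83, 0.17 and 0.17 listed peaks, beside 0.61, 0.61, 0.63 and 0.83 for FGFR1. DUSP6 was thus the denser of the pair in library 2 only.

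The DUSP6 region at 89742123 to 89742227 was listed in 3 libraries. Its log2 fold was 1.87 in library 2 on 21 IP and 6 input reads, 2.67 in library 3 on 3 and 1, and 3.24 in library 4 on 13 and 2. It was enriched in library 4 only. Library 2 had its own enriched peaks at 89742466 to 89742529, with a log2 fold of 3.38 from 20 IP and 2 input reads, and at 89742895 to 89742989, with 3.45 from 21 and 2. Neither was listed in another library, and library 1 listed nothing in the gene.

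IGF1R, the receptor for insulin-like growth factors, has the longest window, 317 kb of chromosome 15 from 99191000 to 99508000 on the plus strand. Libraries 1, 2, 3 and 4 listed 32, 140, 32 and 47 peaks in it, a mean of 70.5 ± 60.3 (SD, n = 3). Unlike in FGFR1, the number followed the length of the lists, with 12.4, 11.8, 15.8 and 15.9 in every 10000 listed. Enriched peaks numbered 2, 1, 1 and 2, or 6.25%, 0.71%, 3.12% and 4.26% of the listed ones, below the share of the whole list in each library. The median log2 fold was 2.33, 0.80, 2.67 and 2.13.

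IGF1R was the only gene of the 5 with an enriched peak in every library, and its highest log2 fold was 4.67, 4.87, 4.99 and 5.13 in libraries 1 to 4, a mean of 4.87 ± 0.20 (SD, n = 3). These did not come from 1 place. In libraries 1, 3 and 4 they came from the region at 99199334 to 99199486, 8.41 kb from the 5′ end, which is the only region of IGF1R enriched in 3 libraries. In library 2 the value came from a peak 3.40 kb from the 3′ end.

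At the 5′ region itself the log2 folds were 4.67, 2.94, 4.99 and 5.13, a mean of 4.22 ± 1.13 (SD, n = 3), and 4.86 without library 2. Library 1 had 16 IP and 2 input reads, library 2 had 59 and 8, and library 3 had 30 and 2. Library 4 stood at the ceiling that many of the authors' −log10 p values share, so its reads could not be worked out. Library 2 passed the p threshold, with a −log10 p of 9.48, and fell short of the fold threshold by less than 0.1. As in FGFR1, the region was thus present in all 4 libraries and lowest in library 2.

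Other IGF1R regions recurred at lower folds or on fewer reads. The region at 99374503 to 99374703, 184 kb from the 5′ end, was listed in all 4 libraries at 3.47, 2.52, 3.09 and 3.35, a mean of 3.07 ± 0.49 (SD, n = 3), and held an enriched peak in library 1 only. The region at 99502341 to 99502424, 5.62 kb from the 3′ end, had 4.25, 2.70, 3.89 and 2.54, a mean of 3.39 ± 0.79 (SD, n = 3). It was enriched in none, since its folds above 3 rested on 6 and 7 IP reads over 1 input read. Over 1 input read an IP count of 7, 13, 8 and 10 was needed in libraries 1 to 4 to reach the threshold.

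Peaks of IGF1R gathered at the 3′ end of the window. The last 10 kb, 3.15% of the window, held 40 of its 251 listed peaks, or 15.9%, and 2 of its 6 enriched peaks. The region at 99504545 to 99504636 had a log2 fold of 4.87 in library 2 from 28 IP reads over 1 input read, 3.09 in library 3 and 1.54 in library 4. Its neighbour at 99504391 to 99504482 had 2.32, 3.89 and 3.86 in the same libraries, and was enriched in library 4 on 10 IP reads over 1. At 99506233 to 99506316 the folds were 2.52, 3.41 and 3.71 and none was enriched. Library 1 listed no peak in these 3 regions.

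**Figure D4:**
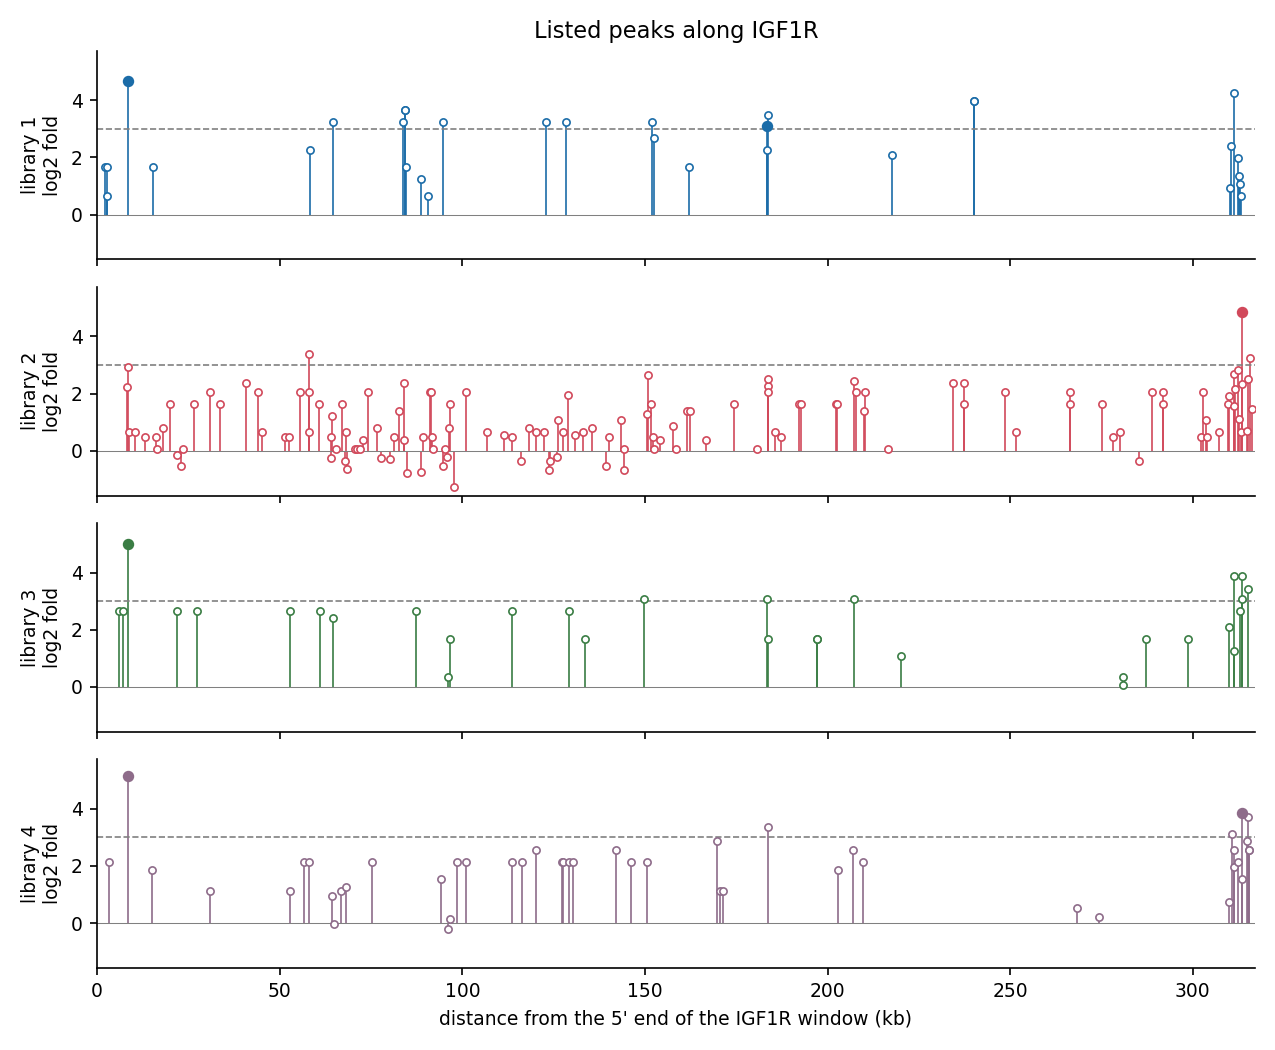
Log2 fold of IP over input of each listed peak along IGF1R, by distance in kb from the 5′ end of its window, with 1 panel per library and filled points for enriched peaks. The peak 8.41 kb from the 5′ end is tall in all 4 panels, and a group of peaks stands within the last 10 kb.

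INSR, the insulin receptor, showed the same gathering at its 3′ end with fewer peaks. Its window covers 183 kb of chromosome 19, from 7112000 to 7295000 on the minus strand, and held 6, 30, 1 and 11 listed peaks, of which 0, 1, 0 and 1 were enriched. The last 10 kb, 5.46% of the window, held 23 of the 48 listed peaks, or 47.9%, and both enriched ones. By library these were 6 of 6, 13 of 30, 0 of 1 and 4 of 11. Library 1 listed nothing elsewhere in the gene, and the only peak of library 3 lay outside, at 7143299 to 7143349, with a log2 fold of 3.67 on 6 IP reads over 1. FGFR1 and FGF2 showed little such gathering. Their last 10 kb, 16.9% and 13.7% of the windows, held 18.4% and 13.2% of their listed peaks. Window length takes no account of exons and introns.

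The enriched INSR peaks of libraries 2 and 4 overlapped, in the region at 7114771 to 7114903, 2.84 kb from the 3′ end. Library 2 had a log2 fold of 3.87 and a −log10 p of 6.52 from 28 IP and 2 input reads. Library 4 had 4.35 and 4.50 from 14 IP reads and 1 input read. Libraries 1 and 3 listed no peak there, so the region was enriched in 2 libraries, which are 2 samples, as many as behind each of the FGFR1 and IGF1R regions. No region of INSR was listed in 3 libraries.

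**Figure D5:**
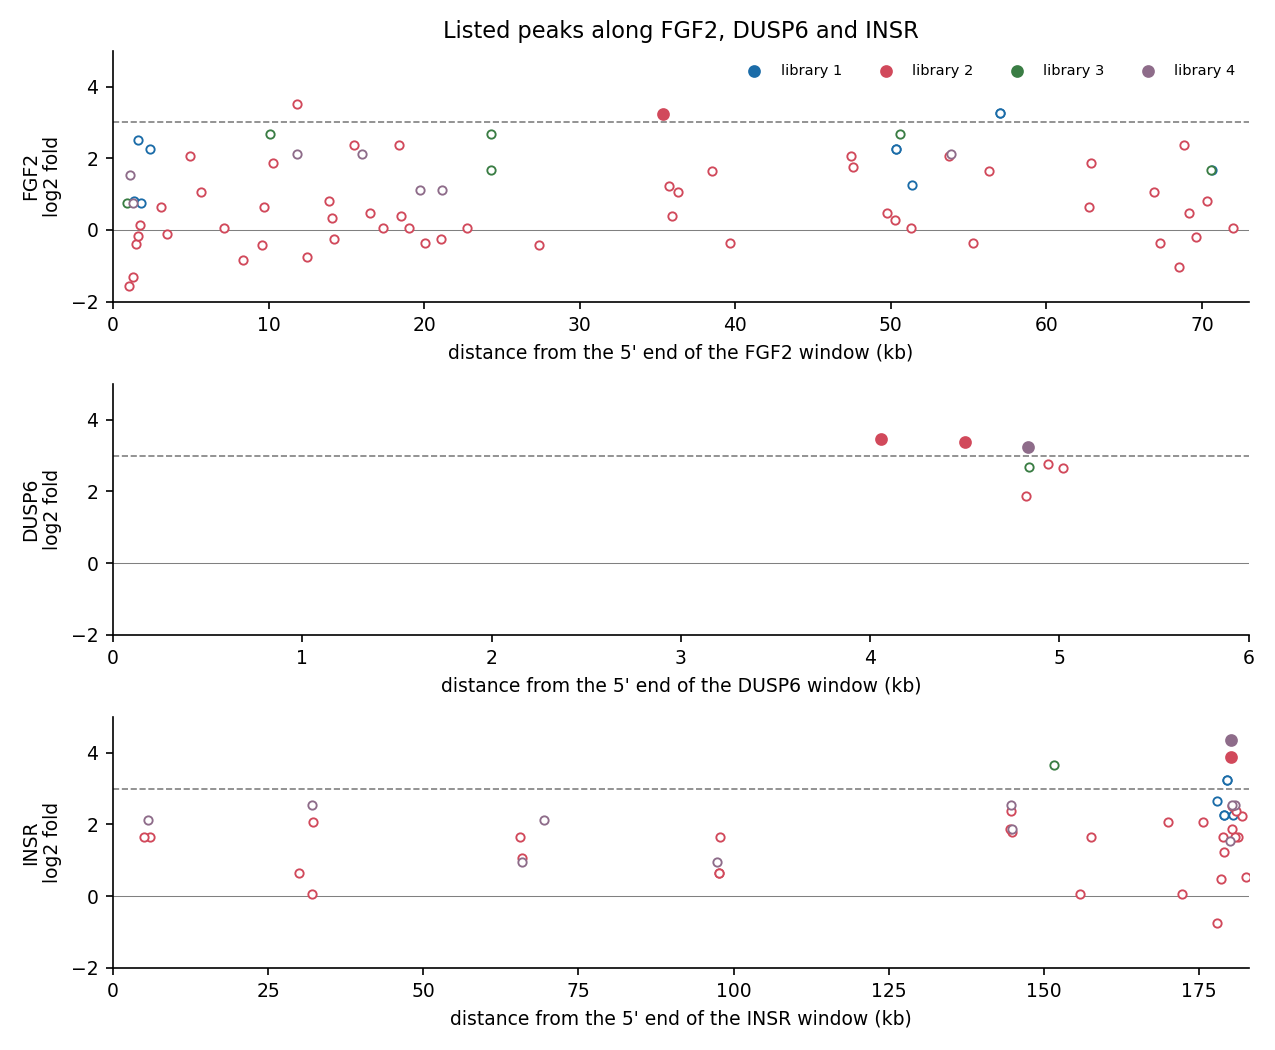
Log2 fold of IP over input of each listed peak along FGF2, DUSP6 and INSR, by distance in kb from the 5′ end of each window, with a colour per library and filled points for enriched peaks. The enriched INSR peaks of libraries 2 and 4 stand together near the 3′ end, the DUSP6 peaks lie in the last 2 kb, and FGF2 has 1 enriched peak, from library 2.

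Depth differed widely between the genes. An input of 1 read stood behind 87 of the 213 IGF1R peaks with known reads, 21 of 44 in INSR, 16 of 48 in FGF2, 1 of 7 in DUSP6 and 4 of 116 in FGFR1. These values do not separate an input of 0 from an input of 1, so a fold over 1 input read depends on the authors' handling of 0. FGFR1 folds thus rested on more input reads than those of the other genes. Fewer RNA molecules and less binding to each cannot be told apart for a gene with few listed peaks, since no expression level of the transcripts was used here.

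In a wider list of 59 other genes of the same pathways, 6 had a region enriched in at least 3 libraries, and 15 of the list's 62 enriched regions were, or 24.2%, beside the 22.7% of the whole series. RPTOR, a scaffold of the mTOR complex that signals downstream of insulin, had 7 such regions, with a highest log2 fold of 7.02, 7.04, 6.33 and 6.77. FGFRL1, an FGF receptor relative without a kinase domain, had 2, and all of its 9, 14, 7 and 8 listed peaks were enriched. IGF2, a ligand of IGF1R and INSR, and GRB10, an adaptor that dampens signalling from both receptors, had 2 each. IL17RD and SPRY4, which like DUSP6 restrain FGF signalling, had 1 each.

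By role, 1 of 5 FGF ligands and receptors, 1 of 4 ligands and receptors of the insulin family, 2 of 10 ERK feedback and target genes and 2 of 22 genes of PI3K, AKT and mTOR signalling had such a region. None of the 18 genes of the RAS and ERK cascade itself did, with 1, 7, 0 and 2 enriched peaks among their 29, 237, 21 and 56 listed ones. Those peaks are 3.45%, 2.95%, 0% and 3.57%, beside 15.9%, 5.38%, 12.6% and 12.7% over the whole lists, and formed 10 enriched regions. All 6 genes with such a region also had one enriched in all 4 libraries, which none of FGF2, FGFR1, DUSP6, IGF1R and INSR had. In the number of enriched peaks over the 4 libraries, the gene of the list most like FGFR1 was SPRY4, with 4, 1, 3 and 5, and the gene most like IGF1R was IL17RD, with 1, 3, 2 and 2. For INSR it was MAP2K1, a kinase of the ERK cascade, with 0, 1, 0 and 2, and for DUSP6 it was ETV1, an ERK target, with 0, 4, 0 and 1. Likeness is the mean absolute difference in log2 of the count plus 1, of 0.66, 0.54, 0.15 and 0.18, and for FGF2 4 genes tied at 0. Listed peaks did not enter these values, and IL17RD had 8, 9, 4 and 7 of them against 32, 140, 32 and 47 in IGF1R.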

How the data were processed

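The 4 RBPMS eCLIP libraries of HUES6 cells each have 1 deposited peak list, and no list of the 4 Input libraries alone was used here. Per the labels' protocols, cells were crosslinked with UV at 400 mJ/cm2 and libraries were sequenced as paired reads of 75 nt. The authors' deposited values are, per peak, a −log10 p and a log2 fold of IP over input. Coordinates are on hg19, per the submitters' processing notes. Not given in the sources used here are the peak caller, the aligner and the input behind each list. Peaks were called per library, as 1 list per library shows.

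IP and input reads were worked out from each pair of values. The log2 fold was taken as a ratio of whole reads times a depth ratio (input over IP 3.18, 1.04, 2.12 and 1.46 in libraries 1 to 4). The p was modelled as a two-sided exact binomial test or, with at least 5 reads in both, a chi-square test with continuity correction. Matches were kept within a relative tolerance of 0.003 on p, or 0.001 on −log10 p above the ceiling of the exact test. Unique reads came back for 94.0%, 100.0%, 98.0% and 98.5% of peaks that could be tried, that is with log2 above 0, a −log10 p of at least 0.1 and neither the ceiling nor 400. The method was tested on simulated data. Among peaks with recovered reads none had fewer than 3 IP reads, and the median was 4, 4, 3 and 4. Total reads per library were not analysed here.

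Enriched peaks of all libraries were merged where they shared at least 1 base on 1 strand. Fold and p are the authors' per-peak values, used to describe and filter, and no test of a gene or list was made. A region's value in a library is that of its peak with the highest log2 fold. Gene windows are whole kb, and exons, introns and UTRs were not analysed here. The members, the gene lists and the thresholds were chosen with earlier results of these data known. Windows of the pathway genes were written from general knowledge and checked against RefSeq GRCh38.p14 for chromosome and length (within 20%, or 2 kb) and, where listed, strand, which kept 59 of 62 genes. Named were the 5 members, the pathway genes with a region enriched in at least 3 libraries, and for each member the pathway gene nearest in enriched peaks. Regions enriched in fewer libraries, and the FGFR1 stretch, were named after their values were seen. Python 3.11.15, numpy 2.4.6, pandas 2.3.3, scipy 1.17.1 and matplotlib 3.10.9 were used.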

Additional observations from a re-analysis of the deposited data

Results flagged for a closer look

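Library 2 stood apart from the other 3 in 7 quantities, measured as its gap to the nearest library over the range of all 4 and set against Dixon's critical value. In FGF2 this gap was 0.915 for listed peaks (53 against 6 to 10), 1 for enriched peaks (1 against 0), 1 for peaks with a −log10 p of at least 3 and 1 for median IP reads (5 against 3). In IGF1R it was 0.861 for listed peaks (140 against 32 to 47) and 0.875 for peaks with a −log10 p of at least 3 (9 against 1 to 2). In FGFR1 library 2 had a gap of 0.942 for median IP reads (75 against 6 to 10). Library 4 had a gap of 0.923 for listed FGFR1 peaks (49 against 36 to 37). Library 3 had a gap of 1 for median IP reads in IGF1R (3 against 4). Of 32 quantities compared 9 stood apart. The 4 gaps of 1 come from small whole numbers tied in 3 libraries, where any difference gives 1, and the same FGF2 peak gave the first pair of them. Chance flags about 1 in 20 groups of continuous, independent values, a rate that does not hold for these, and libraries 3 and 4 were taken singly here.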

How the results depend on the processing

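Over the 5 genes together, the mean number of listed peaks was 148, and leaving out each library in turn gave 90 to 180. The lowest value came from leaving out library 2, and without it the listed peaks fell to 8.25 in FGF2, 0.50 in DUSP6, 35.8 in IGF1R and 6 in INSR from 23.2, 2, 70.5 and 14. Enriched peaks numbered 7.50 (5.75 to 8.75 with each library left out), 18.2 with a log2 fold of at least 1 and 12.7 with at least 2, the latter chosen after seeing the data. Without library 1 the enriched peaks of FGFR1 fell from 4.33 to 2. Without library 2 those of FGF2 fell from 0.33 to 0, of DUSP6 from 0.83 to 0.25 and of INSR from 0.50 to 0.25. With a −log10 p of at least 5 FGF2 and DUSP6 had 0, and with an adjusted p of at most 0.05 IGF1R had 4.33 in place of 1.5 and FGF2 0.67. Those of FGFR1 and IGF1R were 12.3 and 4.17 with a log2 fold of at least 1. Regions enriched in at least 3 libraries numbered 3 in the main setting, 6 with a log2 fold of at least 1 and 0 when all 4 libraries were required. With each library left out, enrichment in 2 of the remaining libraries sufficed, and the regions numbered 3 to 4. INSR gained 1 region when 2 libraries sufficed, when libraries 3 and 4 were joined and 2 samples sufficed, and without library 1 or library 3. Each of these is a looser rule, and the INSR region was enriched in 2 libraries throughout. The mean highest log2 fold was 3.96 (3.85 to 4.18 with each library left out). The count of pathway genes with a region was 6, and 6 to 7 with each library left out, where 2 libraries again sufficed. The cause of these moves was not tested. The other 39 values for the 5 genes together or the pathway list, and 165 of 189 for single genes, stayed within 1.5 times or 1 SD. With the same minimum of 13 IP reads in every library the enriched peaks numbered 7 and the regions 3. No paired analysis was possible because input values appear only inside each ratio, never for an Input library alone. Depth limits calls over 1 input read, where 7, 13, 8 and 10 IP reads were needed in libraries 1 to 4.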
